A study of Homo sapiens with 75 samples.

Results

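Sestrins are a small family of proteins known for induction by stress, encoded in the human genome by SESN1, SESN2 and SESN3. They hold back mTORC1, the kinase complex that promotes cell growth when nutrients are plentiful: SESN2 binds the GATOR2 complex and releases it when it binds leucine, and sestrins are also known to promote the activity of the energy-sensing kinase AMPK and to lower oxidative stress. SESN1 and SESN2 are textbook targets of the transcription factor p53 after DNA damage, SESN2 is also a target of ATF4 in the integrated stress response, and SESN3 is best known as a target of FOXO factors. The genes were taken as every probe set of the array whose single gene symbol was one of these names. That gave 3 of 19775 genes and 10 of 54675 probe sets, with 1 probe set for SESN1 (218346_s_at), 2 for SESN2 and 7 for SESN3. SESN2 is represented by 223195_s_at and SESN3 by 225123_at, the brightest of their probe sets averaged over the 75 arrays, and the others are given where they differ.

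In the RefSeq annotation of GRCh38.p14, SESN1 spans chr6:108984309-109094846 on the minus strand, SESN2 spans chr1:28259518-28282491 on the plus strand and SESN3 spans chr11:95165513-95232475 on the minus strand. RefSeq promoter windows matched all 3 genes, with 3 transcription start sites for SESN1 and 1 each for SESN2 and SESN3. The 250 bases before a start were searched on both strands for 7 motifs: the p53 half-site, the full p53 site (a pair of half-sites with a spacer of at most 13 bases and at most 3 mismatches, which overlaps any half-site within it), the CCAAT box, the cAMP response element TGACGTCA, the ATF4-CEBP core TGATGNAA, the FOXO core GTAAACA and the antioxidant response element core TGACNNNGC. The windows are shown because SESN1 and SESN2 moved together in the arrays and SESN3 did not move with them. They are the innermost SESN1 start (chr6:109008989-109009238, minus strand) and the starts of SESN2 (chr1:28259268-28259517, plus strand) and SESN3 (chr11:95232476-95232725, minus strand). Each is written 5′ to 3′ up to the base before the start, and capitals mark motif matches.
SESN1: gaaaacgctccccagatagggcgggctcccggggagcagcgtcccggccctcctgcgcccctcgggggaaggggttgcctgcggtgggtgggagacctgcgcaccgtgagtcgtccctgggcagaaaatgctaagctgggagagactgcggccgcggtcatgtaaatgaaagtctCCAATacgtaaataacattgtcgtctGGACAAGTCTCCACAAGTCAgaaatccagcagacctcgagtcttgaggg
SESN2: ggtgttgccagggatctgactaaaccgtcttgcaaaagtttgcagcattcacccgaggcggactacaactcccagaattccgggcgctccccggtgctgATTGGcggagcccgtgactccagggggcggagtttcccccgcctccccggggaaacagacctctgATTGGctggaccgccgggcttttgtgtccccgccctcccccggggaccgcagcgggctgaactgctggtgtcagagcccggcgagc
SESN3: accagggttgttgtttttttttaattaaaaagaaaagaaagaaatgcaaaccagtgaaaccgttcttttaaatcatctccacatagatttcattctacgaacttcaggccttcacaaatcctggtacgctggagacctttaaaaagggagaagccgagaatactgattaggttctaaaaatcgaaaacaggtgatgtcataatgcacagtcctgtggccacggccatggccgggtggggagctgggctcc
The SESN1 window held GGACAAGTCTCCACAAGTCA, a full p53 site with 3 mismatches (chr6:109009018-109009037, 49 to 30 bases before the start), whose first 10 bases match the half-site exactly, and a CCAAT box. Of all 35116 promoter windows of the same length, 3.75% held such a full site, 5.57% a half-site and 32% a CCAAT box. The SESN2 window held the CCAAT box in reverse orientation at 2 places, starting 151 and 86 bases before the start, and no other motif searched. The SESN3 window, with 42.8% G and C against 60.4% for SESN1 and 65.6% for SESN2, held none of the 7 motifs. At the other SESN1 starts, the window of 109009552 held a reverse CCAAT box and GCCGCGTCA, a reverse match to the antioxidant response element core (in 10.9% of windows), and that of 109094846 held none. The probe sets do not tell which SESN1 start was in use.

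Levels of messenger RNA were measured on 75 single-sample oligonucleotide arrays in 5 human cell lines, as RMA-normalized log2 values. The names in the labels stand for TK6, a B lymphoblastoid line, U2OS, an osteosarcoma line, BJ, skin fibroblasts, G361, a melanoma line, and HepG2, a hepatoma line. Each line gave 5 groups of 3 arrays: untreated (mock-irradiated) cells at 0 h, 3 h and 6 h, and cells 3 h and 6 h after 5 Gy of ionizing radiation. Per the labels all lines were grown in DMEM with serum, and no engineered allele is named. Whether the 3 arrays of a group stand for separate cultures is not in the labels, so the p-values speak only to the spread among arrays, part of which may be technical. In RNA of whole cultures, a change in every cell and a change in some of the cells cannot be told apart.

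A linear model (limma) with 5 group means was fitted to the 15 arrays of each line, over every gene with a mean level in that line higher than that of 40% of the probe sets. A gene was called at a Benjamini-Hochberg adjusted p under 0.05, and rose or fell is said only of called genes. Differences are log2, irradiated minus untreated unless another pair is named.

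Markers fitted the labels of 3 lines: TK6 had the highest level of all 6 measured B lymphoid markers, BJ of all 7 fibroblast markers and G361 of all 6 melanocyte markers. U2OS was highest for 2 of 5 osteoblast markers, SPP1 (8.83 log2) and ALPL, whose level of 3.36 was below the line's limit, while RUNX2 was higher in HepG2 (9.17) than in U2OS (8.04). Among 7 hepatocyte markers only AFP was highest in HepG2 (5.89, against 5.48 in U2OS), and ALB, the albumin gene, stood at 2.77 there. SERPINA1 was at 8.57 in U2OS and 3.26 in HepG2. The markers thus do not bear out the labels HepG2 and U2OS, and both names are used only as labelled. A second check used 10 p53 response genes with no sestrin among them, as the mean level of an array minus that of its line at 0 h. These genes were chosen with earlier results of these data known. In TK6, U2OS and BJ this mean was between 0.67 and 1.75 in every irradiated array and at most 0.32 in every untreated one. In HepG2 it was 1.04 to 1.08 in the 3 untreated arrays of 6 h and -0.02 to 0.14 in the irradiated arrays of 3 h. In G361 it was 0.92 in untreated replicate 3 of 3 h, and at least 0.97 in untreated replicates 1 and 2 of 6 h against 0.05 in replicate 3, whereas irradiated arrays of 3 h had -0.03 to 0.14. Other arrays ran the way their labels say: irradiated arrays of 6 h had 0.57 to 0.95 in G361 and 1.13 to 1.26 in HepG2, and untreated HepG2 arrays of 3 h had 0.01 to 0.39. The labels of the arrays named first go against the p53 response genes, and results from G361 and HepG2 are given as labelled.

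Before irradiation, the 3 genes differed between lines in different ways. SESN1 at 0 h was at 6.86, 7.44 and 7.22 in HepG2, at 7.16, 6.86 and 6.89 in G361, at 6.33, 7.01 and 6.82 in BJ, at 6.60, 6.36 and 6.36 in TK6 and at 6.24, 5.70 and 6.06 in U2OS. Neighbours in the order of their means (7.17, 6.97, 6.72, 6.44 and 6.00) overlapped, except that every U2OS array lay below every array of the other lines. No neighbours in that order differed by the test. Between lines further apart, HepG2 was above TK6 by 0.74 (SE 0.24, adjusted p = 0.00722), and HepG2, G361 and BJ were above U2OS by 1.17, 0.97 and 0.72 (largest adjusted p 0.00729). Such differences were common: 45.3% (G361 against HepG2) to 59.2% (TK6 against BJ) of 16027 genes tested were called between a pair of lines.

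SESN2 at 0 h was at 8.62, 8.15 and 8.20 in TK6, at 8.32, 8.10 and 8.09 in BJ, at 7.14, 7.58 and 7.40 in U2OS, at 7.01, 7.50 and 7.35 in HepG2 and at 6.40, 6.45 and 5.99 in G361. TK6 and BJ overlapped and did not differ by the test (0.15, SE 0.23, adjusted p = 0.604), nor did U2OS and HepG2 (0.09, SE 0.23, adjusted p = 0.791). The steps between them did: BJ was above U2OS by 0.80 (adjusted p = 0.0025) and HepG2 was 2.01-fold above G361 (adjusted p = 0.000211). Without replicate 1, the step from BJ to U2OS was 0.61 and was not called (adjusted p = 0.0872). From the highest to the lowest line, TK6 stood 4.12-fold above G361.

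SESN3 had the widest range over lines of the 3 genes. By 225123_at it was at 0 h at 8.17, 8.09 and 7.24 in TK6, at 6.40, 5.61 and 5.75 in U2OS, at 5.77, 5.48 and 5.05 in G361, at 4.33, 3.41 and 3.30 in HepG2 and at 2.74, 3.44 and 3.63 in BJ. By this probe set TK6 lay above every array of the other lines. HepG2 and BJ lay around the level limit of 3.47, with the BJ mean at 0 h (3.27) below it, so no fold is given against them. TK6 exceeded U2OS by 1.91 (SE 0.32, 3.76-fold, adjusted p = 3.75e-07) and was 5.27-fold above G361 (adjusted p = 1.28e-09), while the neighbours U2OS and G361 (0.49, adjusted p = 0.211) did not differ by the test. With the mean of all SESN3 probe sets, TK6 minus U2OS was 0.49 and still called, and U2OS minus G361 was 0.77 and called (adjusted p = 1.1e-07). Another SESN3 probe set, 235683_at, was above the limit in TK6 (6.04 to 7.08 over 15 arrays) and U2OS (6.13 to 7.91) and below it in G361 (mean 3.22), HepG2 (2.49) and BJ (2.48). By that probe set TK6 was not above U2OS: at 0 h it was at 6.60, 6.42 and 6.14 in TK6 and at 6.83, 6.59 and 6.21 in U2OS, which overlap, a difference not tested between lines for this probe set alone. The remaining 5 SESN3 probe sets had line means of 2.34 to 3.85, of which 235684_s_at in TK6 and U2OS and 235150_at in TK6 were above the limit.

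**Figure D1:**
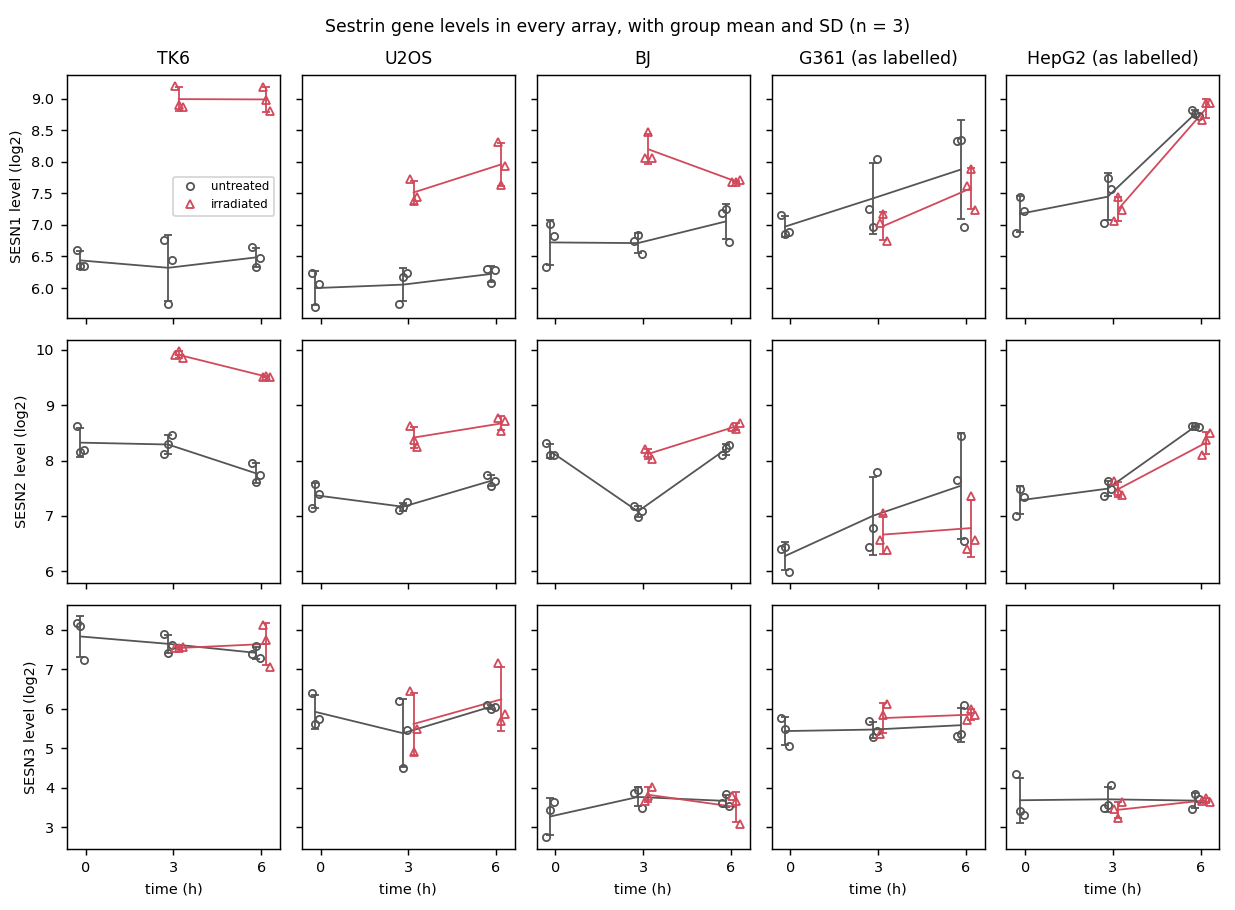
Level of SESN1, SESN2 and SESN3 (rows, log2) against time in hours in each line (columns), with circles for untreated and triangles for irradiated arrays, lines through the means of 3 arrays and bars of 1 SD. Irradiated arrays lie above untreated ones for SESN1 and SESN2 in TK6, U2OS and BJ, SESN2 dips in untreated BJ cells at 3 h, both genes are high in all HepG2 arrays at 6 h, and no SESN3 difference between groups of a line was called.

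In TK6, SESN1 and SESN2 rose several-fold after irradiation and SESN3 was not called. SESN1 at 3 h was at 6.76, 5.75 and 6.45 in untreated and at 9.20, 8.90 and 8.86 in irradiated arrays, and at 6 h at 6.65, 6.34 and 6.47 against 9.18, 8.98 and 8.79. The groups were more than 2 log2 units apart at both times. SESN1 rose by 2.67 at 3 h (SE 0.20, 6.36-fold, adjusted p = 5.7e-08) and by 2.50 at 6 h (SE 0.20, 5.66-fold, adjusted p = 1.75e-07), the fifth largest rise of 14227 genes tested at 3 h. In all, 1.88% of these genes were called higher at 3 h and 4.01% at 6 h, 2.11% and 2.23% were called lower, and 17.4% and 23.6% had groups that did not overlap.

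SESN2 in TK6 was at 8.11, 8.30 and 8.45 in untreated arrays at 3 h and at 9.90, 9.98 and 9.85 in irradiated ones, and at 7.96, 7.61 and 7.73 against 9.51, 9.53 and 9.51 at 6 h. Again the groups did not overlap, and the irradiated arrays of each time lay close together. The rise was 1.62 at 3 h (SE 0.13, 3.07-fold, adjusted p = 1.36e-07) and 1.74 at 6 h (SE 0.13, 3.35-fold, adjusted p = 6.72e-08). The other SESN2 probe set, 223196_s_at, gave 1.53 and 1.79 (adjusted p = 2.33e-06 and 3.44e-07). Part of the difference at 6 h came with lower untreated values: untreated SESN2 fell by 0.55 from 0 h to 6 h (SE 0.13, adjusted p = 0.0161), a contrast in which 3.35% of genes were called lower and 1.81% higher. That fall was not called with 223196_s_at (adjusted p = 0.238) or without any of 3 single arrays, 0 h replicate 1, 6 h replicate 2 and 6 h replicate 3 (adjusted p = 0.0591, 0.0843 and 0.0699), nor without replicate 2 or 3 in every group (0.211 and 0.221). Against 0 h, irradiated SESN2 was higher by 1.58 at 3 h and 1.19 at 6 h (adjusted p = 2e-07 and 5.3e-06), where 4.36% of genes were called higher and 6.14% lower at 3 h, and 7.44% and 6.81% at 6 h.

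In U2OS the same 2 genes rose. SESN1 was at 5.75, 6.17 and 6.24 in untreated and 7.72, 7.38 and 7.44 in irradiated arrays at 3 h, and at 6.29, 6.08 and 6.29 against 8.31, 7.64 and 7.93 at 6 h. All irradiated arrays were above all untreated ones, as for 6.8% and 12.4% of genes with groups apart in either direction. The rise was 1.46 at 3 h (SE 0.21, 2.75-fold, adjusted p = 0.00408) and 1.73 at 6 h (SE 0.21, 3.33-fold, adjusted p = 0.00017), beside 0.0751% of 14654 genes called higher at 3 h and 0.307% at 6 h. By size, SESN1 ranked 4 at 3 h and 6 at 6 h among all rises of the line, and 0.0136% of genes, 2 in number, were called lower at 3 h. The median over all genes was itself 0.10 at 3 h.

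SESN2 in U2OS was at 7.10, 7.15 and 7.24 in untreated and 8.62, 8.37 and 8.25 in irradiated arrays at 3 h, and at 7.74, 7.54 and 7.63 against 8.77, 8.53 and 8.71 at 6 h. The groups were apart at both times, with a rise of 1.25 (SE 0.16, 2.37-fold, adjusted p = 0.0013) and 1.04 (SE 0.16, 2.05-fold, adjusted p = 0.00207), ranks 9 and 36 by size. With 223196_s_at the differences were 1.40 and 1.16 and were not called (adjusted p = 0.0592 and 0.0658). Leaving out arrays also ended calls in this line: without replicate 3 in every group neither gene was called at either time (adjusted p = 0.492 for SESN1 and 0.375 for SESN2 at 3 h, 0.0748 and 0.449 at 6 h), although the differences were 1.59, 1.37, 1.78 and 1.01. Without replicate 2, SESN1 and SESN2 at 3 h and SESN2 at 6 h were not called (adjusted p = 0.162, 0.258 and 0.26).

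In BJ fibroblasts the difference was larger at 3 h than at 6 h. SESN1 was at 6.75, 6.85 and 6.54 in untreated and 8.06, 8.47 and 8.06 in irradiated arrays at 3 h, and at 7.18, 7.25 and 6.73 against 7.68, 7.67 and 7.70 at 6 h. Groups did not overlap at either time, but the gap at 6 h was narrow. At 3 h SESN1 rose by 1.48 (SE 0.17, 2.80-fold, adjusted p = 0.000227), while the difference of 0.63 at 6 h (SE 0.17, 1.55-fold) was not called (adjusted p = 0.272). In this line 0.18% of 14467 genes were called higher at 3 h and 0.145% at 6 h, and 6.93% and 10.8% had groups that did not overlap. The effect at 6 h minus that at 3 h was -0.85 for SESN1 (SE 0.24, adjusted p = 1). By limma no gene was called in that contrast, where 302 genes, SESN1 and SESN2 among them, had an unadjusted p under 0.05, so a decline of the response was not shown after adjustment.

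SESN2 in BJ was at 7.17, 6.98 and 7.09 in untreated and 8.21, 8.13 and 8.02 in irradiated arrays at 3 h, a rise of 1.04 (SE 0.10, 2.05-fold, adjusted p = 1.74e-05). At 6 h it was at 8.09, 8.23 and 8.28 against 8.60, 8.56 and 8.68, a difference of 0.41 (SE 0.10, 1.33-fold, adjusted p = 0.117). The groups were apart at both times, yet only the first difference was called. The effect at 6 h minus that at 3 h was -0.62 (SE 0.14, adjusted p = 0.826).

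The rise of SESN2 in BJ at 3 h came with low untreated arrays. At 0 h the gene had been at 8.32, 8.10 and 8.09, the level of the irradiated arrays at 3 h, and the untreated arrays at 3 h lay about 1 log2 unit below both. Untreated SESN2 fell by 1.09 from 0 h to 3 h (SE 0.10, 2.12-fold lower, adjusted p = 5.33e-05) and at 6 h differed from 0 h by 0.03 (adjusted p = 0.966). The second probe set fell by 1.22 at 3 h (adjusted p = 0.00446). Only 0.0138% of genes were called lower in this contrast, that is 2 genes, with SESN2 having the smallest p of all. Without replicate 2 or replicate 3 in every group the fall was not called (-1.07, adjusted p = 0.0578, and -1.13, adjusted p = 0.0505). Relative to 0 h, irradiated SESN2 was at -0.05 at 3 h (SE 0.10, adjusted p = 0.915) and rose by 0.45 at 6 h (adjusted p = 0.0233, with 0.691% of genes called higher). That last call was lost with 223196_s_at (0.32, adjusted p = 0.572), without replicate 2 or 3 (adjusted p = 0.22 and 0.39) and without any of 5 single arrays (0.0553 to 0.106). SESN1 had no such dip (-0.01 at 3 h), and irradiated SESN1 was above 0 h by 1.47 at 3 h and 0.96 at 6 h (adjusted p = 0.000393 and 0.00702), the second of which was lost without replicate 1 or 3 (adjusted p = 0.0649 and 0.212).

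The other gene called lower in untreated BJ cells at 3 h was CHAC1, a glutathione-degrading enzyme gene known as a target of ATF4, which was named after its values were seen. It was at 7.67, 7.38 and 7.43 at 0 h and at 5.59, 6.16 and 6.23 in untreated arrays at 3 h, a fall of 1.5 (SE 0.16, adjusted p = 0.000352). Whether that call holds with arrays left out was not tested. ATF4, DDIT3, NUPR1 and CEBPB were not called in this contrast. In irradiated arrays at 3 h CHAC1 was just as low, at 5.60, 5.90 and 5.67, so its irradiated minus untreated difference was -0.27 (adjusted p = 1). CHAC1 was thus low in both groups at 3 h, and SESN2 was low in the untreated group and not in the irradiated one. At 6 h CHAC1 differed from 0 h by -0.01 in untreated arrays and 0.16 in irradiated ones (adjusted p = 0.998 and 0.732).

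**Figure D2:**
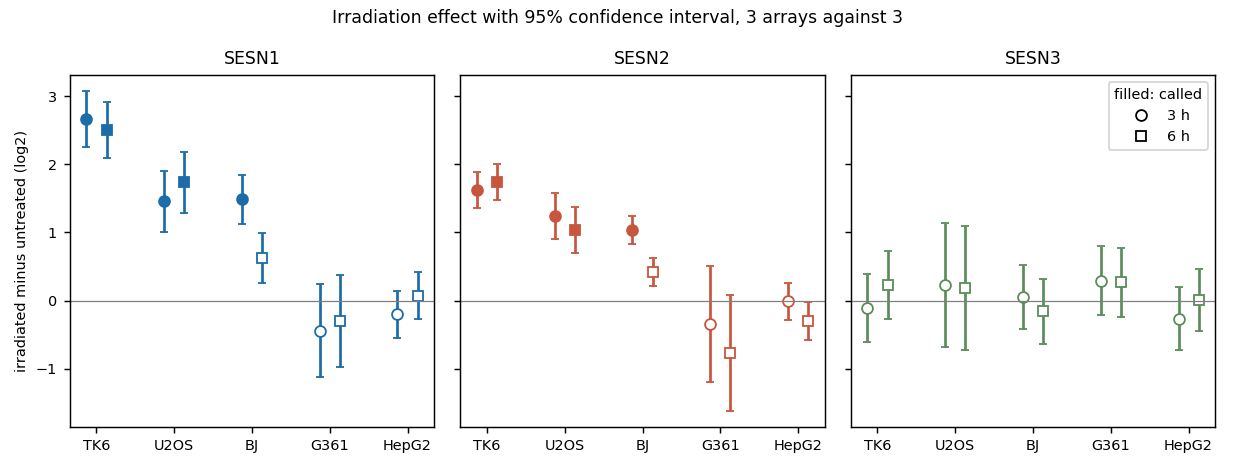
Irradiated minus untreated difference (log2) of each sestrin gene per line, with circles at 3 h, squares at 6 h, 95% confidence intervals of the limma fit and filled symbols for called differences. SESN1 and SESN2 are called in TK6 and U2OS at both times and in BJ at 3 h, and every SESN3 interval includes 0.

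In HepG2, irradiated and untreated arrays of the same time did not differ by the test, and both groups were high at 6 h. SESN1 was at 6.86, 7.44 and 7.22 at 0 h, at 7.03, 7.74 and 7.56 untreated and 7.07, 7.45 and 7.23 irradiated at 3 h, and at 8.82, 8.75 and 8.72 untreated and 8.66, 8.93 and 8.92 irradiated at 6 h. All 6 arrays at 6 h were above all others. Irradiated minus untreated was -0.20 at 3 h (95% confidence interval -0.54 to 0.15) and 0.07 at 6 h (-0.27 to 0.42), with 0% of 14369 genes called higher at either time and 0.00696%, 1 gene, called lower at 6 h. At an unadjusted p under 0.05 there were 809 and 917 genes, and without replicate 1 in every group 939 and 372 genes were called. Against 0 h, untreated SESN1 at 6 h rose by 1.59 (SE 0.16, 3.01-fold, adjusted p = 1.59e-05) and irradiated SESN1 by 1.66 (adjusted p = 5.66e-06).

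SESN2 in HepG2 followed the same course, at 7.01, 7.50 and 7.35 at 0 h and at 8.62, 8.62 and 8.60 untreated and 8.10, 8.36 and 8.50 irradiated at 6 h. At 3 h its untreated arrays were at 7.36, 7.64 and 7.48 and the irradiated ones at 7.63, 7.45 and 7.37. Both groups at 6 h lay above every array at 0 h and 3 h, with the untreated arrays higher than the irradiated at 6 h, and 14.2% of genes had groups apart in that comparison. Untreated SESN2 rose by 1.33 from 0 h to 6 h (SE 0.13, 2.52-fold, adjusted p = 8.61e-06) and irradiated SESN2 by 1.04 (adjusted p = 0.000129, but 0.0501 without replicate 3), in contrasts with 0.508% and 1.31% of genes called higher. Irradiated minus untreated was -0.01 at 3 h and -0.30 at 6 h (95% confidence interval -0.57 to -0.02, adjusted p = 0.732).

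In G361 the untreated arrays spread widely. SESN1 was at 7.24, 6.96 and 8.05 untreated and 7.02, 7.18 and 6.74 irradiated at 3 h, and at 8.32, 8.34 and 6.96 against 7.61, 7.89 and 7.24 at 6 h. SESN2 was at 6.43, 6.78 and 7.79 against 6.56, 7.05 and 6.38 at 3 h, and at 7.65, 8.44 and 6.54 against 6.41, 7.37 and 6.57 at 6 h. For both genes the highest arrays were untreated at 3 h replicate 3 and untreated at 6 h replicates 1 and 2, the arrays in which the p53 response genes were also high. In all 5 replicate 1 arrays of this line, the GAPDH control probe set at the transcript's start was lower than that at its end (start minus end -0.94 to -0.68), and the part of this in the values was not tested.

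Irradiated minus untreated, SESN1 in G361 was at -0.44 at 3 h and -0.29 at 6 h, and SESN2 at -0.34 and -0.76 (SE 0.32 for SESN1 and 0.40 for SESN2, all adjusted p = 1). By limma 0% of 14487 genes were called at either time, with 106 and 226 at an unadjusted p under 0.05 and no sestrin among them, and 4.2% and 5.96% of genes had groups apart. From 0 h to 6 h, untreated SESN2 differed by 1.27 (SE 0.40, adjusted p = 1) with no overlap, as for 3.92% of genes, and untreated SESN1 by 0.90 (SE 0.32, adjusted p = 1). An alternative chosen after seeing the data left out the 3 untreated arrays that stood apart. SESN1 at 3 h and 6 h was then at -0.12 and 0.62, and SESN2 at 0.06 and 0.24. That left replicate 3 alone as the untreated group at 6 h, so only the sizes are given. The sign of both genes at 6 h, and of SESN2 at 3 h, thus turned with those arrays. At 6 h it rests on 1 untreated array without them. As the arrays left out were the highest for both genes, leaving them out could only raise the differences, so no conclusion is drawn from the turn. With all arrays kept, neither gene was called.

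**Figure D3:**
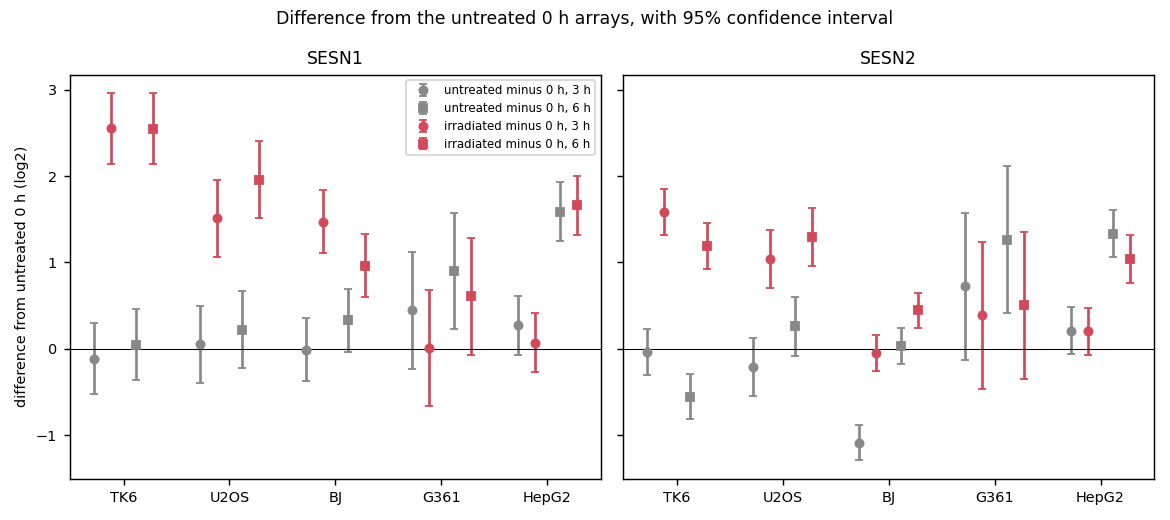
Difference of SESN1 and SESN2 from the untreated 0 h arrays of the same line (log2), in grey for untreated and red for irradiated arrays, with circles at 3 h, squares at 6 h and 95% confidence intervals of the limma fit. Untreated values stay near 0 in TK6 and U2OS except for SESN2 in TK6 at 6 h, fall for SESN2 in BJ at 3 h, and rise with the irradiated ones in HepG2 at 6 h.

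SESN3, the FOXO-linked member, was not called in any comparison with untreated arrays or with 0 h. In TK6, where its level by 225123_at was highest, untreated arrays were at 7.89, 7.42 and 7.62 at 3 h and 7.39, 7.59 and 7.28 at 6 h, and irradiated arrays at 7.54, 7.53 and 7.55 and at 8.12, 7.75 and 7.05. The groups overlapped at both times. Irradiated minus untreated was -0.11 at 3 h (95% confidence interval -0.61 to 0.40, adjusted p = 0.921) and 0.23 at 6 h (-0.28 to 0.73, adjusted p = 0.754), intervals that do not reach the difference of SESN1 or SESN2 in this line.

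In U2OS, SESN3 varied more between replicates than between groups. It was at 6.19, 4.49 and 5.45 untreated and 6.45, 4.91 and 5.48 irradiated at 3 h, and at 6.11, 6.00 and 6.04 against 7.17, 5.69 and 5.86 at 6 h. Replicate 1 was the highest in each of the 5 groups of this line. The difference was 0.23 at 3 h (95% confidence interval -0.67 to 1.14) and 0.19 at 6 h (-0.72 to 1.09), where the SESN2 difference lay above the first interval and within the second. In G361 the values ran from 5.05 to 6.11 (differences 0.29 and 0.27), in HepG2 from 3.22 to 4.33 (-0.27 and 0.01) and in BJ from 2.74 to 4.02 (0.05 and -0.16). None of the 7 SESN3 probe sets was called in the fit of all probe sets, in any line or contrast.

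The irradiation effect was then compared between lines in 1 fit of all 75 arrays, with a moderated F test. The spread in that fit comes from all lines, so the widely spread G361 arrays enter the tests among TK6, U2OS and BJ too. Among TK6, U2OS and BJ, the effect on SESN1 differed at 6 h (adjusted p = 0.000795) and not at 3 h (adjusted p = 0.0585, but 0.01 in a fit blocked on replicate number). The effect on SESN2 differed at 6 h (adjusted p = 0.0421) and not at 3 h (0.915), and that on SESN3 at neither time (0.98 and 1). Of 15730 genes, 0.846% were called at 3 h and 1.75% at 6 h. Of the pairs of lines at 6 h, 1 was called for each gene: TK6 exceeded BJ by 1.87 for SESN1 (SE 0.34, adjusted p = 0.000221) and by 1.33 for SESN2 (SE 0.33, adjusted p = 0.0161), where 1.49% of genes were called. At 6 h TK6 minus U2OS was 0.77 (95% confidence interval 0.09 to 1.44, adjusted p = 0.521) for SESN1 and 0.71 (0.05 to 1.36, adjusted p = 0.58) for SESN2. Both F tests at 6 h among the 3 lines lost their calls with fewer arrays: SESN1 had an adjusted p of 0.115 without replicate 2, and SESN2 of 0.147, 0.714 and 0.205 without replicates 1, 2 and 3.

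With G361 and HepG2 added as labelled, both SESN1 (adjusted p = 2.45e-10 at 3 h and 6.46e-09 at 6 h) and SESN2 (3.12e-05 and 2.22e-07) differed between the 5 lines, and SESN3 did not (adjusted p = 1 at both times). Here 1.34% and 1.83% of 16027 genes were called.

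SESN1 and SESN2 were set beside 10 measured p53 response genes, among them CDKN1A, the p21 cell cycle inhibitor, MDM2, the ubiquitin ligase that degrades p53, and the secreted stress cytokine GDF15. Of these genes 9 rose in TK6 at each time (median difference 1.66 and 1.74, against 0.01 over all genes at both times), beside 1.88% and 4.01% of all genes. In U2OS 5 and 8 rose (0.79 and 1.20), beside 0.0751% and 0.307% of all genes. In BJ 6 and 6 rose (1.08 and 0.70), beside 0.18% and 0.145%. In G361 and HepG2 0 rose, and 0% of all genes did, so those counts say nothing particular of the list. The count in HepG2 moved with the setting. Without replicate 1, 4 of the list were called at 3 h and 1 at 6 h in either direction, beside 939 and 372 of all genes. In the fit blocked on replicate number 1 was called at 6 h, beside 56 of all genes. Relative to 0 h, 7 rose in untreated and 9 in irradiated HepG2 arrays at 6 h, beside 0.508% and 1.31% of all genes. SESN1 was thus called beside at least 5 of these 10 genes in TK6 and U2OS and in BJ at 3 h. Without replicate 2 or 3 the list's counts in U2OS were 2 and 1 at 3 h and 4 and 3 at 6 h, and in BJ at 6 h 1 and 0. In BJ at 6 h, CDKN1A (1.04, adjusted p = 0.000223), MDM2 (0.95, adjusted p = 0.00173) and GDF15 (1.22, adjusted p = 0.000917) were called and neither sestrin was. TP63, BTG2 and FDXR were not analysed here.

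**Figure D4:**
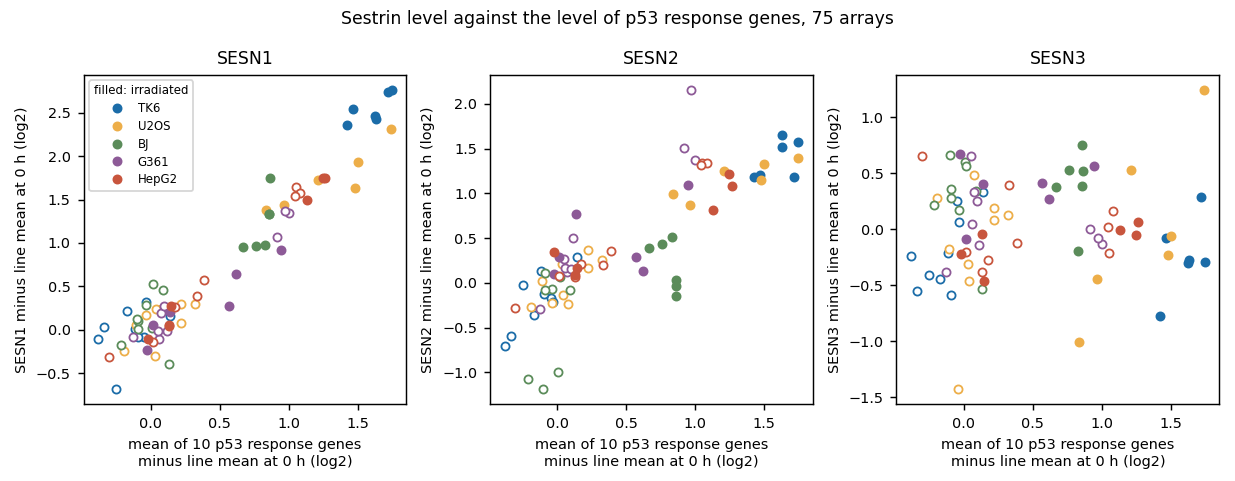
Level of each sestrin gene against the mean of 10 p53 response genes, both as log2 minus the line's mean at 0 h, for 75 arrays coloured by line, with filled symbols for irradiated arrays. SESN1 is high in the arrays in which the p53 response genes are high, including untreated arrays labelled G361 and HepG2. SESN2 mostly is too, except in BJ, whose irradiated arrays at 3 h lie near 0 and untreated ones near -1, and SESN3 shows no such order.

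Likeness of pattern was measured as Pearson's r over the 75 arrays after the mean of each line was removed. The arrays share lines, treatments and replicate numbers, so r is a description. The 6 genes most like SESN1 were all on the list of p53 response genes, and 5 of them were CDKN1A (0.946), PPM1D (0.941), TIGAR (0.936), MDM2 (0.932) and GDF15 (0.924). That list was chosen with earlier results of these data known, so this overlap is not independent of them. For SESN2 they were GADD45A (0.895), ATF3 (0.880), CDKN1A (0.876), GDF15 (0.853), PPM1D (0.851) and TIGAR (0.850), so that GADD45A, a growth arrest gene, and ATF3, a stress-induced transcription factor, were among the 6 for SESN2 and not for SESN1. In the 45 arrays of TK6, U2OS and BJ alone, 5 of the 6 were the same for SESN1 and 5 for SESN2. The highest r for SESN3 was 0.666 (PNMA2), and 1 of its 6 genes was the same in the 45 arrays. SESN1 and SESN2 had an r of 0.849 with each other (0.869 to 0.954 in the 15 arrays of G361, HepG2, TK6 or U2OS and 0.443 in BJ), and SESN3 had 0.117 with SESN1 and 0.00688 with SESN2.

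The genes around the sestrins were taken from 10 lists with 89 members, of which 83 were measured. In TK6, 3 of 78 tested members rose and 1 fell at 3 h, and 8 rose and 3 fell at 6 h, beside 1.88% of all genes called higher and 2.11% lower at 3 h, and 4.01% and 2.23% at 6 h. In the other lines no member was called by limma in the comparison of irradiated with untreated arrays. At an unadjusted p under 0.05 there were 6 at 3 h and 1 at 6 h of 81 in U2OS, where 601 and 604 of all 14654 genes had such a p, and 1 and 4 of 83 in BJ, where 298 and 855 of 14467 did. There were 1 and 0 of 81 in G361 (106 and 226 of 14487 genes) and 8 and 9 of 80 in HepG2 (809 and 917 of 14369). Without replicate 1, adjusted calls in either direction came in HepG2, beside 939 and 372 of all genes. At 3 h they were 4 nutrient sensors, 1 mTORC subunit, 1 TSC list gene and 2 of the peroxiredoxin and NRF2 list. At 6 h they were 1 nutrient sensor and 2 of the peroxiredoxin and NRF2 list. In U2OS 1 regulator was called at 6 h without replicate 1, beside 256 of all genes.

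Of the 3 members that rose in TK6 at both times, 2 encode subunits of AMPK, the kinase that sestrins are known to promote. PRKAB1, a regulatory beta subunit, rose by 1.36 at 3 h (SE 0.12, adjusted p = 5.82e-07) and 1.25 at 6 h, and PRKAB2, the other beta subunit, rose by 1.54 (SE 0.16, adjusted p = 4.91e-06) and 1.28. PRKAG1, a gamma subunit, rose by 0.34 at 6 h (adjusted p = 0.0332). Altogether 2 of 8 tested genes of the AMPK list rose at 3 h and 3 at 6 h, beside 1.88% and 4.01% of all genes, with a list median of 0.16 and 0.14 against 0.01 over all genes. In U2OS, PRKAB1 was at 0.43 and 0.34 and PRKAB2 at 0.52 and 0.40, none of them called (adjusted p = 0.909 at 3 h and 1 at 6 h), and in BJ PRKAB1 was at 0.13 and 0.12.

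Upstream of mTORC1 stand the GATOR2 genes, whose products sestrins bind. In TK6 at 3 h 1 of 5 fell (MIOS, by 0.44, adjusted p = 0.0208), and at 6 h WDR59 rose by 0.70 (adjusted p = 0.00525) and SEH1L fell by 0.34 (adjusted p = 0.038), with list medians of -0.04 and -0.17 and no call without replicate 2 or 3. Of GATOR1 and KICSTOR, the other nutrient sensors, Rag GTPases and Ragulator, mTORC1 and mTORC2 subunits, and the TSC complex with RHEB and the REDD genes, no tested member was called at 3 h or 6 h. At an unadjusted p under 0.05 there were 2 of 8 mTORC subunits and 1 of 6 TSC list genes at 3 h, and 1 TSC list gene at 6 h. DDIT4 (REDD1), another stress-induced inhibitor of mTORC1, was at 0.30 and 0.23 (adjusted p = 0.123 and 0.233). Among mTORC1 outputs, 1 of 8 fell at 6 h, the S6 kinase gene RPS6KB1 (by 0.62, adjusted p = 0.00138, with no call in the list without replicate 3). Of the 14 genes of the peroxiredoxin and NRF2 list, sulfiredoxin (SRXN1) fell by 0.38 at 6 h (adjusted p = 0.0256), with no call in the list when any replicate was left out. With the mean of a gene's probe sets, no GATOR2 gene and no mTORC1 output was called in TK6 at 6 h.

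Of the known regulators of sestrin genes, 1 of 8 rose in TK6 at 3 h and 4 at 6 h, beside 1.88% and 4.01% of all genes. Without replicate 2 or 3 the count at 3 h was 0, and without replicate 3 that at 6 h was 2. NUPR1, a stress-induced transcription cofactor, rose by 1.27 at 3 h (adjusted p = 0.00844) and 1.16 at 6 h. At 6 h CEBPB rose by 1.02 (adjusted p = 6.95e-06), DDIT3 (CHOP) by 1.10 (adjusted p = 0.000292) and ATF4 by 0.28 (adjusted p = 0.0232). As for SESN2, untreated values at 6 h were below those at 0 h for DDIT3, which fell by 0.82 (adjusted p = 0.00767), and ATF4, which fell by 0.59 (adjusted p = 0.000267). Relative to 0 h, irradiated ATF4 at 6 h fell by 0.31 (adjusted p = 0.00795). The remaining genes of that list, TP73, FOXO1, FOXO3 and FOXO4, were not called in TK6 at either time.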

How the data were processed

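The 75 arrays fall into 25 groups of 3 by their labels, a number that limits the precision. The authors deposited log2 levels, for which the submitters' processing notes name RMA. The sources used here give neither its version nor whether lines were normalized jointly. They ran from 1.64 to 13.99, with array medians of 3.91 to 4.07. Of 54675 probe sets, 41097 have 1 gene symbol, 1801 several and 11777 none here; 41043 symbols matched RefSeq. Each line was fitted with limma 3.58.1 in R 4.3.3 (5 group means, 10 residual degrees of freedom, eBayes with trend) over genes above the line's level limit (3.47 to 3.52), with Benjamini-Hochberg adjustment over all genes tested. Lines were compared in 1 fit of all arrays. Scripts were tested on simulated data. The named genes were the 3 sestrins, at most 4 called members per list and comparison (11 lists, 101 genes), members given for a value not called, and the 6 genes most like each sestrin, plus CHAC1, named after its values were seen. The members and lists were chosen with earlier results of these data known. Deviations of same-numbered irradiated and untreated arrays had r over 0.1 for each number, apart from the lowest values of 0.0961 in HepG2 (3 h) and -0.0306 in BJ (6 h), so the replicate number was tried as a block. Other alternatives were no level filter, quantile normalization, no variance trend, the mean of a gene's probe sets or another probe set, 2-group and 75-array fits, and leaving out replicates or single arrays.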

Additional observations from a re-analysis of the deposited data

Results flagged for a closer look

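The size of the irradiation effect differed between cell lines for SESN1 and SESN2, by a limma moderated F test of the difference itself. Among TK6, U2OS and BJ this held at 6 h, with an adjusted p of 0.000795 for SESN1 (irradiated minus untreated 2.50, 1.73 and 0.63) and 0.0421 for SESN2 (1.74, 1.04 and 0.41). These calls were lost with fewer arrays: SESN2 had an adjusted p of 0.147, 0.714 and 0.205 without replicates 1, 2 and 3, and SESN1 of 0.115 without replicate 2. Among all 5 lines as labelled it held for SESN1 at 3 h (adjusted p = 2.45e-10) and 6 h (6.46e-09) and for SESN2 at 3 h (3.12e-05) and 6 h (2.22e-07). The tests over 5 lines include the G361 and HepG2 arrays whose labels go against the p53 response genes. Those among TK6, U2OS and BJ take their spread from the fit of all 75 arrays, so the same arrays enter that spread. The part of those arrays in the F tests was not tested.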

How the results depend on the processing

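No called difference of a sestrin gene changed sign; signs of uncalled values were not followed. Over settings that left out arrays, 455 of 486 values of called results kept their call and 31 lost it; over other settings 181 of 189 kept it, and with another probe set 9 of 14. Of values not called, 1 of 552 gained a call, SESN2 in G361 (untreated, 6 h minus 0 h) in the fit of all 75 arrays (1.27, adjusted p = 0.00406). In TK6, the fall of untreated SESN2 at 6 h was not called in the 2-group and 75-array fits (-0.55 in both) or with 223196_s_at (-0.42). In U2OS the 2-group fit ended the calls at 3 h (SESN1 1.46, SESN2 1.25) and those of irradiated arrays at 3 h against 0 h (1.51 and 1.04), and 223196_s_at gave 1.40, 1.16 and 1.01 for SESN2 at 3 h, at 6 h and at 3 h against 0 h. In BJ, SESN2 at 6 h against 0 h was not called with the mean of probe sets (0.38), in the 75-array fit (0.45) or with 223196_s_at (0.32). The F test of SESN1 at 3 h among TK6, U2OS and BJ was called after quantile normalization (adjusted p = 0.0311) and in the fit blocked on replicate (replicate block, 0.01); the block changed no other call of a sestrin. The mean of probe sets set SESN3 in U2OS above G361 at 0 h (0.77). With single arrays or a replicate left out, values ranged from 0.90 to 1.15 for SESN2 in HepG2 (irradiated 6 h against 0 h) and from -0.65 to -0.41 for SESN2 in TK6 (untreated 6 h against 0 h). In U2OS they ranged from 1.20 to 1.59 (SESN1) and 1.11 to 1.37 (SESN2) at 3 h, from 1.56 to 1.90 and 0.98 to 1.11 at 6 h, from 1.36 to 1.63 and 0.82 to 1.17 for irradiated 3 h against 0 h, and from 1.13 to 1.47 for SESN2 at irradiated 6 h against 0 h. In BJ they ranged from -1.13 to -1.01 for SESN2 (untreated 3 h against 0 h), and from 0.77 to 1.12 (SESN1) and 0.38 to 0.53 (SESN2) for irradiated 6 h against 0 h. Adjusted p-values of the F tests at 6 h among the 3 lines ranged from 0.00811 to 0.115 for SESN1 and from 0.147 to 0.714 for SESN2, and the SESN2 step from BJ to U2OS at 0 h from 0.61 to 0.94. Fewer arrays were fitted in these settings; the cause of the other changes was not tested. Over all genes, the block raised the calls between irradiated and untreated arrays from 568 to 1203 and 887 to 1868 in TK6 (3 h and 6 h), 13 to 36 and 94 to 157 in U2OS, 26 to 32 and 34 to 75 in BJ and 0 to 6 and 1 to 56 in HepG2. Without replicate 1, 2 or 3 there were 545, 248 and 211 and 823, 326 and 246 calls in TK6, 37, 3 and 2 and 256, 18 and 12 in U2OS, and 17, 13 and 12 and 11, 3 and 0 in BJ. Levels near the limit, as for SESN3 in HepG2 and BJ, could hide a change.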

Other observations

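Some neighbours of the sestrins were called against 0 h and not between irradiated and untreated arrays of the same time, in the lines named here. The genes named are examples from the 10 lists. The untreated arrays of 6 h and irradiated arrays of 3 h labelled HepG2 are among those whose labels go against the p53 response genes. DDIT4, which encodes the stress-induced mTORC1 inhibitor REDD1, was higher than at 0 h in irradiated arrays at 6 h of BJ (1.34, limma adjusted p = 0.0169), U2OS (1.09, adjusted p = 0.0168), HepG2 (1.20, adjusted p = 0.0116) and TK6 (0.72, adjusted p = 7.81e-05). It was also higher in untreated arrays at 6 h of HepG2 (1.23, adjusted p = 0.0183) and TK6 (0.50, adjusted p = 0.00727). For irradiated arrays at 6 h, list members called higher and lower were 4 and 1 of 83 in BJ and 1 and 0 of 81 in U2OS. They were 1 and 0 of 80 in HepG2 and 12 and 7 of 78 in TK6. The shares of all genes were 0.691% and 1.39%, 0.416% and 0.314%, 1.31% and 0.23%, and 7.44% and 6.81%. In TK6, KICS2 and ITFG2, subunits of the KICSTOR complex that tethers GATOR1 to the lysosome, rose in untreated arrays from 0 h to 6 h by 0.88 and 0.51 (adjusted p = 0.000671 and 0.0233). In untreated arrays at 6 h, 3 of 78 list members rose and 4 fell in TK6, beside 1.81% and 3.35% of all genes. In HepG2 these were 1 and 0 of 80, beside 0.508% and 0.132%. HMOX1, the heme oxygenase gene and a classical NRF2 target, was higher in irradiated arrays at 3 h than at 0 h in BJ (0.94, adjusted p = 0.0228) and TK6 (0.70, adjusted p = 0.00905) and fell by 0.85 in HepG2 (adjusted p = 0.00521). In that contrast 1 of 83 list members rose and 0 fell in BJ, beside 0.207% and 0.0899% of all genes. In TK6 8 of 78 rose and 4 fell, beside 4.36% and 6.14%. In HepG2 1 of 80 rose and 1 fell, where 65 of 14369 genes were called in either direction.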
